A study of Homo sapiens with 9 samples.

Results

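The 31 genes described here encode nucleoporins, the proteins that build the nuclear pore complex, and were taken by name from the 19257 genes of the deposited count table. All 31 were found, and all 31 were among the 12574 genes that passed the filter on low counts. They were divided by role into 11 FG-repeat nucleoporins, 14 scaffold nucleoporins (9 of the Y complex and 5 of the inner ring) and 6 others. The libraries came from A549, a human lung adenocarcinoma cell line, in 3 groups of 3. OGT_KO cells had received a Lenti-CRISPR-V2 plasmid directed at OGT, and TR11B_KO cells a plasmid directed at TR11B, the UniProt entry name of osteoprotegerin (gene TNFRSF11B). NC cells had received the empty plasmid and carry the genotype label WT. All groups thus went through plasmid transfection, each knockout is represented under a single guide-like name, and the titles call the replicates biological without saying whether they were separate cultures or clones. What the guide or clone does cannot be told apart from what loss of the gene does, and p-values measure the spread between these libraries, which may be technical.

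Nuclear pores are the channels through which proteins and RNA pass between nucleus and cytoplasm. Their scaffold is formed by the Y complex, which lies in the outer rings, and by the inner ring, which holds the channel open. FG-repeat nucleoporins carry stretches rich in phenylalanine and glycine that fill the channel and bind transport receptors loaded with cargo. OGT is the enzyme that attaches O-linked N-acetylglucosamine (O-GlcNAc) to nuclear and cytoplasmic proteins, OGA removes it, and FG-repeat nucleoporins are among the most heavily modified proteins known. The measurement here is RNA, and neither the protein level of a nucleoporin nor its modification was measured.

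Library totals lay between 38327508 and 42245970 counts. Levels are given as CPM (counts per 1000000 of the library total scaled by the TMM method), or as the authors' FPKM where genes of different length are compared. TR11B_KO replicate 2 stood apart, with a TMM factor of 0.784 where the other libraries had 0.951 to 1.159. The epithelial keratins KRT8, KRT18 and KRT7 were abundant in every library, whereas EPCAM and CDH1 had a level at or near 0 and KRT19 stayed under 0.5 CPM. The epithelial markers summed to 11460 to 14560 CPM in OGT_KO, 16360 to 25770 CPM in TR11B_KO and 20010 to 22570 CPM in NC. Immune, endothelial and fibroblast markers each summed to at most 6.5 CPM in any library.

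The targeted genes did not separate the groups in the way their labels would. OGT had 21.1, 28.3 and 22.9 CPM in the libraries labelled OGT_KO, 17.0, 11.5 and 12.4 CPM in TR11B_KO and 29.6, 26.9 and 24.7 CPM in NC. Its log2 fold change in OGT_KO against NC was −0.17 ± 0.21 (SE, adjusted p = 0.607 in edgeR's quasi-likelihood test), and its level in TR11B_KO was lower than in NC (log2 fold change −0.99 ± 0.21, adjusted p = 0.00393). The count of OGT RNA does not show whether the protein was lost. OGA had 2.16, 3.13 and 1.05 CPM in OGT_KO, 3.74, 2.42 and 5.53 CPM in TR11B_KO and 4.83, 5.01 and 3.94 CPM in NC. It fell in OGT_KO against NC (−1.12 ± 0.37, adjusted p = 0.0474), a call lost without OGT_KO replicate 1 or 3 or without any NC library (adjusted p 0.0778 to 0.169). TNFRSF11B was under the filter, with 1, 0 and 0 counts in OGT_KO, 3, 1 and 0 counts in TR11B_KO and 13, 15 and 3 counts in NC. Directions below therefore hold for the libraries labelled OGT_KO and TR11B_KO.

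Nucleoporin RNA covered a wide range of levels per length, and every class held both abundant and scarce members. The highest mean FPKM was that of AAAS, a WD-repeat protein of the pore's cytoplasmic side also known as aladin, at 118 ± 3.02 in OGT_KO, 113 ± 18.2 in TR11B_KO and 109 ± 1.17 in NC (SD, n = 3 each). SEC13, a Y complex subunit that also serves in the COPII coat of secretory vesicles, followed at 68.7 ± 4.92, 81.8 ± 12.96 and 67.3 ± 2.29 FPKM in OGT_KO, TR11B_KO and NC. In NC the next were NUP85 at 61.9 ± 3.67, NUP188 at 42.7 ± 9.41 and NUP93 at 40.5 ± 1.72 FPKM. NUP188 and NUP93 lay within their spread of each other there. The most abundant FG-repeat gene was NUP62, at 20.01 ± 3.15 FPKM in OGT_KO, 8.87 ± 2.18 FPKM in TR11B_KO and 28.5 ± 4.72 FPKM in NC. RANBP2 had 0.646 ± 0.136 FPKM in OGT_KO, 0.119 ± 0.0430 FPKM in TR11B_KO and 0.294 ± 0.0353 FPKM in NC. Its mean was the lowest of the 31 genes in TR11B_KO and in NC, while in OGT_KO that of NUP54 was lowest at 0.494 ± 0.0573 FPKM.

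**Figure D1:**
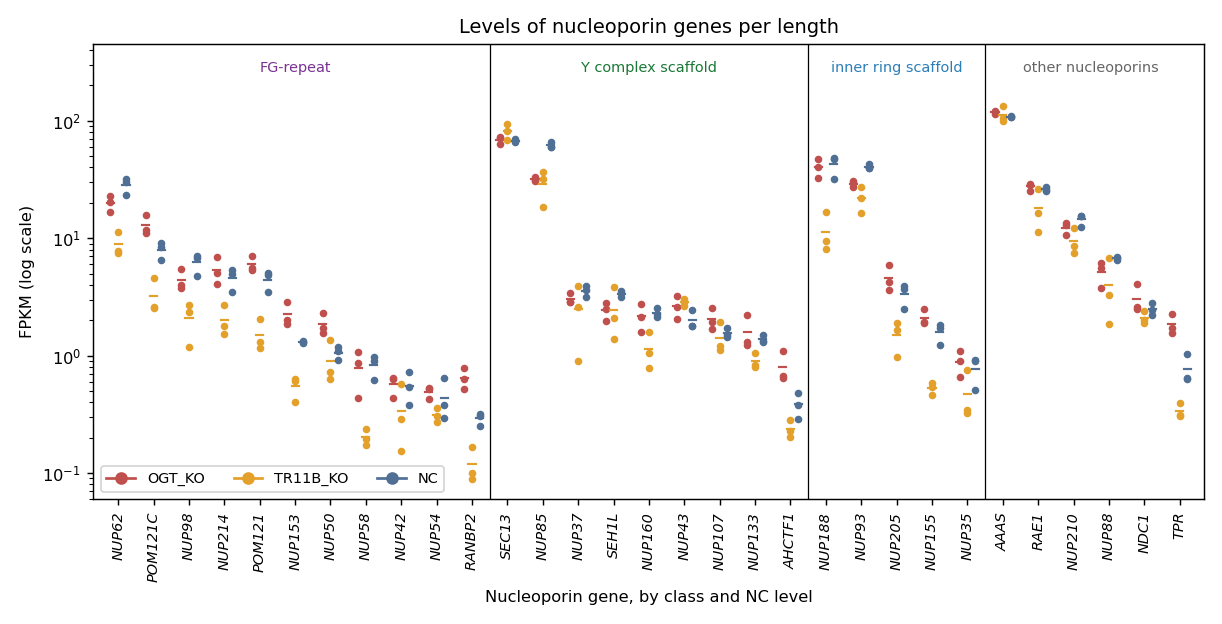
Level of the 31 nucleoporin genes in FPKM (log axis) for each library, with genes ordered by class and by their NC mean. Points are libraries in OGT_KO (red), TR11B_KO (orange) and NC (blue), and short lines are means of 3. AAAS and SEC13 stand highest, and the TR11B_KO points of most FG-repeat genes lie under the others.

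The promoters of 5 of the genes called in both knockouts are shown, so that those that moved alike can be set side by side. TPR, RANBP2 and NUP153 were higher in OGT_KO and lower in TR11B_KO, and NUP62 and NUP85 were lower in both. NUP93, also lower in both, has several RefSeq starts and is not shown. The sequences are those of RefSeq for GRCh38.p14, 300 bases from 250 before the start to 50 after it, read 5′ to 3′ on the gene's strand. They lie at chr1:186375204-186375503 (minus strand), chr2:108719232-108719531 (plus strand), chr6:17706876-17707175 (minus strand), chr19:49929455-49929754 (minus strand) and chr17:75205429-75205728 (plus strand). Capitals mark matches, on either strand, to the NRF1 motif (GCGC, any base, then TGCGC), the CCAAT box (CCAAT, or ATTGG on the other strand) and the GC box (GGGCGG or its complement).
TPR: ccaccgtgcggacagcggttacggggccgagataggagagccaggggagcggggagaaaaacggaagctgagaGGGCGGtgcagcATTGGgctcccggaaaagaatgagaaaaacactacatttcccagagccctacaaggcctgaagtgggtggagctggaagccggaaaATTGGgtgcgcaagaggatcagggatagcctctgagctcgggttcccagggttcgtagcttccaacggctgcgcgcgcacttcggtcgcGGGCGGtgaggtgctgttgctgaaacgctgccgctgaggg
RANBP2: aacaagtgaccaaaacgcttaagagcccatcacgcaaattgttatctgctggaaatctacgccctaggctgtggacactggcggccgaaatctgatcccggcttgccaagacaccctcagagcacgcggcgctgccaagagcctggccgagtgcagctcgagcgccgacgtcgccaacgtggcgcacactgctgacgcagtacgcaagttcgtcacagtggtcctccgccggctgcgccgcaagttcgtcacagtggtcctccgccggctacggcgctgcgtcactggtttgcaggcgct
NUP153: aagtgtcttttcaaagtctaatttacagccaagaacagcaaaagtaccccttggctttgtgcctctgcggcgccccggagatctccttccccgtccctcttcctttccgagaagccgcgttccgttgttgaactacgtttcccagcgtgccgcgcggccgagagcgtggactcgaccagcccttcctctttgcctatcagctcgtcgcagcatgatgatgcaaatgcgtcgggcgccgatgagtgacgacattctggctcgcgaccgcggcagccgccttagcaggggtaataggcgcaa
NUP62: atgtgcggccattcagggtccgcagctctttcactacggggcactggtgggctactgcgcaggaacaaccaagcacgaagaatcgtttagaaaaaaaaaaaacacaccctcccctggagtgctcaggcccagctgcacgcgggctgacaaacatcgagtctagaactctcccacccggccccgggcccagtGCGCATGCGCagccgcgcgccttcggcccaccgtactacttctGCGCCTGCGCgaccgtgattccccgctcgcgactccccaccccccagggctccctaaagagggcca
NUP85: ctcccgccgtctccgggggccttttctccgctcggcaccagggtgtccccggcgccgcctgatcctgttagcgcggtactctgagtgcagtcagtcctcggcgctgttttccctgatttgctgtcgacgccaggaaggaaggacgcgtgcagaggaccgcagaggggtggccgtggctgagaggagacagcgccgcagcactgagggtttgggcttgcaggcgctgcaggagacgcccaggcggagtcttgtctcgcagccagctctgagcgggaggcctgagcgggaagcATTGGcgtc

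Of these 5, NUP62 held 2 NRF1 matches, TPR held 2 CCAAT boxes and 2 GC boxes, NUP85 held 1 CCAAT box, and RANBP2 and NUP153 held no match. RefSeq promoters were found for 29 of the 31 nucleoporin genes, 37 promoters in all. NRF1 matches stood in only 4 of the 37 (10.8%) and in 5.78% of all 35116 promoters of that length. The CCAAT box was in 37.8% against 34.6%, and the GC box in 45.9% against 45% of all promoters. The ETS motif CCGGAAG, which none of the 5 sequences holds, was in 37.8% of nucleoporin promoters and 10.3% of all. A match is a string of letters, and binding of a factor was not measured.

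In the libraries labelled OGT_KO, nucleoporin RNA changed in both directions. TPR and NUP153 of the basket and RANBP2 of the cytoplasmic filaments were higher, the chromatin-binding Y complex partner AHCTF1 was higher, and NUP85, NUP93 and NUP62 were lower. Against NC, 4 of the 31 genes rose, 3 fell and 24 did not pass an adjusted p under 0.05, where 8.26% of all tested genes rose and 10.1% fell. The median log2 fold change was 0.06 over the nucleoporins and 0.03 over all 12574 genes. The share of nucleoporins called, 7 of 31, was thus near that of all genes (18.3%). Groups did not overlap for 7 higher and 8 lower nucleoporins, where 49.8% of all genes were so separated, 24.2% higher and 25.6% lower.

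TPR, which forms the filaments of the nuclear basket, had 15.5, 18.9 and 14.4 CPM in OGT_KO, against 6.19, 9.86 and 5.98 CPM in NC. Every OGT_KO library was above every NC library, and TPR rose by 1.15 ± 0.25 on the log2 scale (SE, edgeR adjusted p = 0.00625). NUP153, the FG-repeat protein that anchors the basket, had 10.9, 15.3 and 11.9 CPM in OGT_KO and 7.98, 7.96 and 8.20 CPM in NC. It rose by 0.66 ± 0.21 (adjusted p = 0.0447), with the NC libraries close together and OGT_KO replicate 2 the highest. NUP50, a mobile FG-repeat protein of the basket that binds importin alpha, had 9.87, 12.2 and 9.12 CPM in OGT_KO and 5.54, 6.71 and 7.21 CPM in NC. The groups did not overlap, but its log2 fold change of 0.68 ± 0.26 did not pass (adjusted p = 0.0786).

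RANBP2, the giant filament protein that binds Ran and acts as a SUMO ligase, had 8.37, 9.66 and 6.97 CPM in OGT_KO, against 4.47, 4.36 and 3.55 CPM in NC. It rose by 1.01 ± 0.24 (edgeR adjusted p = 0.0115), without overlap of the groups. Reads of RANBP2 can be shared with its near-identical RGPD copies, which had few counts: the most in any library was 15, for RGPD8. How reads that map to several copies were counted is not given, so these counts do not show how many reads were shared. AHCTF1, also called ELYS, brings the Y complex to chromatin when pores form after mitosis. It had 5.53, 8.601 and 5.76 CPM in OGT_KO and 2.63, 4.40 and 3.45 CPM in NC, and rose by 0.92 ± 0.29 (adjusted p = 0.0397).

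The 3 genes that fell belong to different modules. NUP85, a subunit of an arm of the Y complex, had 92.0, 86.3 and 102 CPM in OGT_KO, against 189, 189.7 and 209 CPM in NC, a fall of 1.07 ± 0.18 on the log2 scale (edgeR: log2 fold change −1.07, adjusted p = 0.00143). All 3 OGT_KO libraries were far below the NC libraries. NUP93, the linker that ties the inner ring together, had 249, 238 and 236 CPM in OGT_KO and 358, 383 and 352 CPM in NC (−0.60 ± 0.16, adjusted p = 0.0184). NUP62, the central channel protein after which its complex is named, had 64.8, 67.3 and 53.8 CPM in OGT_KO and 108, 102 and 77.9 CPM in NC (−0.63 ± 0.20, adjusted p = 0.0407). NUP62 lies across ATF5 in the annotation, and ATF5 was lower in OGT_KO too (−0.68 ± 0.15, adjusted p = 0.00826). Whether counting used strand is not given in the sources used here, so reads of such pairs cannot be told apart.

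The calls of TPR and NUP85 held under all 22 alternatives tried. Of the 22, the call was lost under 4 for RANBP2, 9 for NUP93, 11 for AHCTF1, 12 for NUP153 and 13 for NUP62. For each gene these include fits with an offset or the replicate block, as well as libraries left out. Among the libraries left out, the call of RANBP2 was lost without OGT_KO replicate 2 (edgeR adjusted p = 0.0619) or without NC replicate 3 (adjusted p = 0.0560). Those of NUP93 and NUP62 were lost without any of the OGT_KO libraries or without NC replicate 1 or 2, at an adjusted p of 0.0665 to 0.0864 for NUP93 and 0.0879 to 0.171 for NUP62. Those of AHCTF1 and NUP153 were lost without any OGT_KO or NC library or without TR11B_KO replicate 3, at 0.0513 to 0.186 for AHCTF1 and 0.0594 to 0.193 for NUP153.

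**Figure D2:**
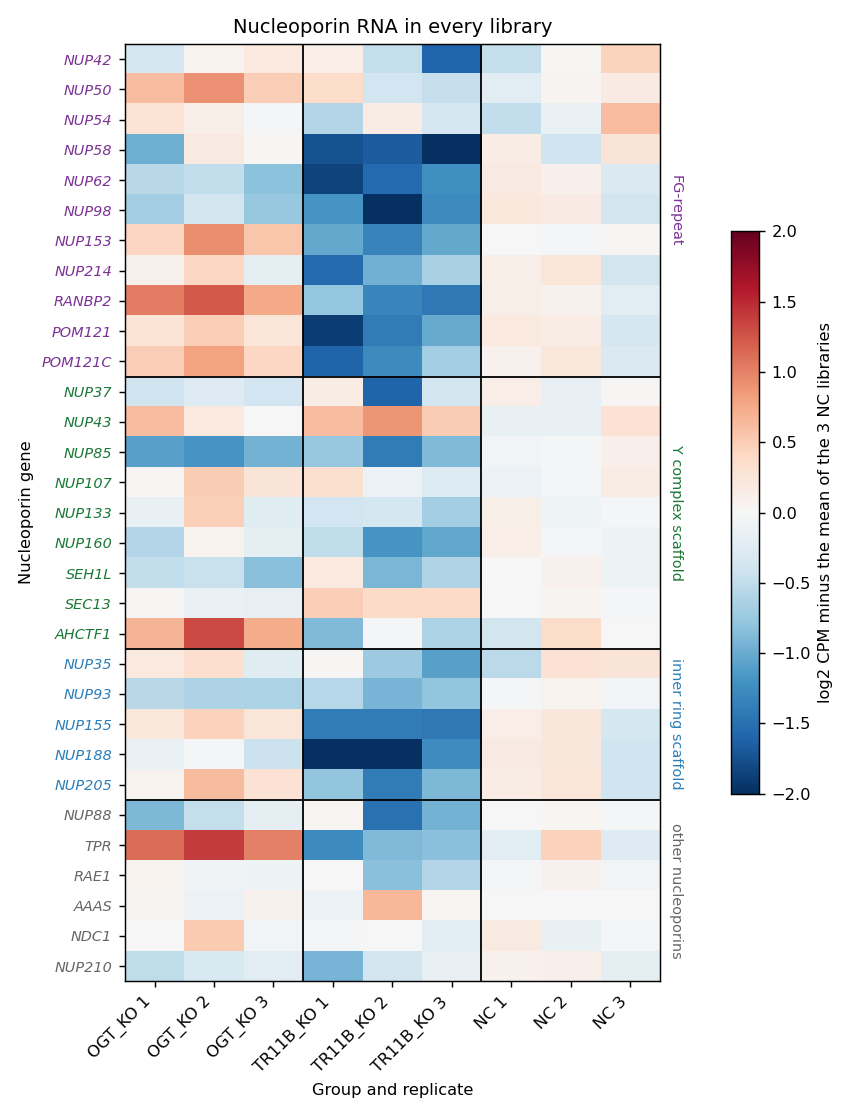
Heat map of log2 CPM minus the mean of the 3 NC libraries for the 31 nucleoporin genes (rows, by class) in the 9 libraries (columns), with red above and blue below the NC mean and the colour scale ending at −2 and 2. The row of TPR is red in all 3 OGT_KO libraries and blue in all 3 TR11B_KO libraries, and most FG-repeat rows are blue in TR11B_KO.

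In the libraries labelled TR11B_KO, about as many nucleoporin genes fell as did not, and most of the falls were of FG-repeat or inner ring genes. Against NC, 15 of the 31 genes fell, 2 rose and 14 did not pass, where 27.6% of all tested genes were called, 14.3% lower and 13.2% higher. All 11 FG-repeat genes had a negative log2 fold change, and 8 of them fell. Of the 14 scaffold genes, 6 fell and 2 rose, and of the 6 others only TPR fell. The scaffold falls were 4 of the 5 inner ring genes and 2 of the 9 Y complex genes. The median log2 fold change was −1.16 over the FG-repeat genes, −0.55 over the scaffold, −0.44 over the others and −0.01 over all tested genes. Within the scaffold it was −1.03 over the inner ring, near the FG-repeat value, and −0.44 over the Y complex. The groups did not overlap for 16 lower and 2 higher nucleoporins (40.9% of all genes, 21.9% lower and 19% higher).

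The central channel is lined by the complex of NUP62, NUP58 and NUP54. NUP62 had 26.2, 32.4 and 40.6 CPM in TR11B_KO, against the NC values of 77.9 to 108 CPM, and fell by 1.54 on the log2 scale (−1.54 ± 0.20, edgeR adjusted p = 0.000271). ATF5, which NUP62 lies across, had no call there (−0.11 ± 0.15, adjusted p = 0.610). NUP58 had 1.19, 1.26 and 0.922 CPM in TR11B_KO and 4.54, 3.11 and 4.91 CPM in NC, the most negative of all 31 log2 fold changes (−1.90 ± 0.33, adjusted p = 0.00127). NUP54 had 1.36, 2.29 and 1.61 CPM in TR11B_KO and 1.46, 1.88 and 3.17 CPM in NC, with overlapping groups and no call (−0.31 ± 0.33, adjusted p = 0.509). NUP58 lies on chromosome 13, where 33% of the 200 tested genes fell in TR11B_KO and the median log2 fold change was −0.67. Whether that shift has a part in its value was not tested.

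NUP98, an FG-repeat protein made from a precursor that also yields the scaffold protein NUP96, had 21.2, 11.8 and 19.6 CPM in TR11B_KO, against 55.3, 53.6 and 36.9 CPM in NC. It fell by 1.47 ± 0.24 on the log2 scale (log2 fold change −1.47, edgeR adjusted p = 0.000943). On the cytoplasmic side, RANBP2 had 2.38, 1.61 and 1.49 CPM in TR11B_KO, all below the lowest NC value of 3.55 CPM (−1.17 ± 0.26, adjusted p = 0.00473). NUP214, which holds the mRNA export helicase DDX19 at the pore, had 12.1, 18.2 and 22.5 CPM in TR11B_KO and 38.7, 42.2 and 27.4 CPM in NC (−1.03 ± 0.25, adjusted p = 0.00867). NC replicate 3 was the lowest NC library for NUP62, NUP98, NUP214, POM121, POM121C, NUP155, NUP188 and NUP205, yet stayed above all TR11B_KO libraries for each of them.

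NUP153 and TPR, higher in OGT_KO, were lower in TR11B_KO. NUP153 had 3.93, 3.16 and 3.94 CPM in TR11B_KO, against NC values of 7.96 to 8.20 CPM (−1.13 ± 0.22, edgeR adjusted p = 0.00239). TPR had 2.93, 3.87 and 4.00 CPM in TR11B_KO, below the NC values of 5.98 to 9.86 CPM (−1.03 ± 0.25, adjusted p = 0.00891). NUP153 overlaps the antisense gene NUP153-AS1, which had 12.6, 12.7 and 12.8 CPM in TR11B_KO and 6.74, 7.72 and 7.18 CPM in NC and rose (0.82 ± 0.22, adjusted p = 0.0142). The antisense gene thus went the other way from NUP153 there. In OGT_KO, where NUP153 rose by 0.66, NUP153-AS1 had 14.1, 8.601 and 10.8 CPM, all above NC, with a log2 fold change of 0.63 ± 0.22 that did not pass (adjusted p = 0.0593). NUP50 had 8.33, 4.93 and 4.66 CPM in TR11B_KO, spanning the NC values, with no call (−0.12 ± 0.26, adjusted p = 0.769).

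POM121 and POM121C are near-identical FG-repeat proteins that anchor the pore in the nuclear membrane, so reads may be split between them. POM121 had 12, 17.1 and 22.5 CPM in TR11B_KO and 51.7, 49.7 and 35.5 CPM in NC (−1.41 ± 0.23, edgeR adjusted p = 0.000954). POM121C had 15.2, 19.0 and 28.4 CPM in TR11B_KO and 48.7, 53.0 and 37.7 CPM in NC (−1.16 ± 0.23, adjusted p = 0.00296). Neither gene's groups overlapped. POMZP3, a partial copy of POM121 fused to ZP3 sequence, had 18.5, 26.7 and 19.1 CPM in TR11B_KO, close to its NC values of 21.96, 22.4 and 19.3 CPM. In OGT_KO it had 46.7, 41.1 and 41.1 CPM, a rise of 1.02 ± 0.19 over NC (adjusted p = 0.00285).

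Among the scaffold genes, 4 of the 5 inner ring genes fell. NUP188 had 53.4, 59.0 and 99.1 CPM in TR11B_KO, against 268, 275 and 179 CPM in NC (−1.77 ± 0.25, edgeR adjusted p = 0.000365). SH3GLB2, which overlaps NUP188 in the annotation, had no call (0.50 ± 0.20, adjusted p = 0.0806). NUP155, which links the ring to the membrane, had 4.88, 4.90 and 4.76 CPM in TR11B_KO and 14.2, 15.1 and 10.2 CPM in NC (−1.44 ± 0.22, adjusted p = 0.000545). The TR11B_KO libraries were nearly equal for NUP155. NUP205, a large inner ring protein related to NUP188, had 11.9, 7.74 and 11.01 CPM in TR11B_KO and 22.9, 24.3 and 15.6 CPM in NC (−1.03 ± 0.24, adjusted p = 0.00684). NUP93 had 245.5, 191 and 211 CPM in TR11B_KO, below the NC values of 352 to 383 CPM (−0.76 ± 0.16, adjusted p = 0.00359). The remaining inner ring gene, NUP35, had no call (−0.58 ± 0.36, adjusted p = 0.247).

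The Y complex was divided. NUP85 had 116, 74.6 and 106 CPM in TR11B_KO, all below the NC values of 189 to 209 CPM (−0.99 ± 0.18, edgeR adjusted p = 0.00179). NUP160, of the other arm, had 9.71, 6.09 and 6.71 CPM in TR11B_KO and 15.2, 13.6 and 12.8 CPM in NC (−0.88 ± 0.24, adjusted p = 0.0161). In contrast, NUP43, a small beta-propeller of the complex, had 20.1, 24.3 and 18.6 CPM in TR11B_KO and 11.9, 11.8 and 16.1 CPM in NC, and rose (0.66 ± 0.22, adjusted p = 0.0402). SEC13 rose as well, with 212, 197 and 195 CPM in TR11B_KO and 149, 156 and 146 CPM in NC (0.42 ± 0.15, adjusted p = 0.0492). AHCTF1 had 1.83, 3.32 and 2.18 CPM in TR11B_KO, overlapping NC (−0.52 ± 0.30, adjusted p = 0.207).

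The 8 FG-repeat calls in TR11B_KO remained 8 when any single library was left out. The rise of SEC13 was lost without any OGT_KO or NC library or without TR11B_KO replicate 3 (adjusted p 0.0713 to 0.164). That of NUP43 was lost without OGT_KO replicate 2 or 3, TR11B_KO replicate 3 or NC replicate 1 or 2 (0.0541 to 0.160). NUP160 lost its call without TR11B_KO replicate 3 or NC replicate 1 or 2 (0.0517 to 0.0701), and TPR without NC replicate 2 (0.0674). Without TR11B_KO replicate 2, the library with the low TMM factor, 17 nucleoporins were lower and 2 higher. Of the 12827 genes in that fit, 2212 were lower and 2174 higher.

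**Figure D3:**
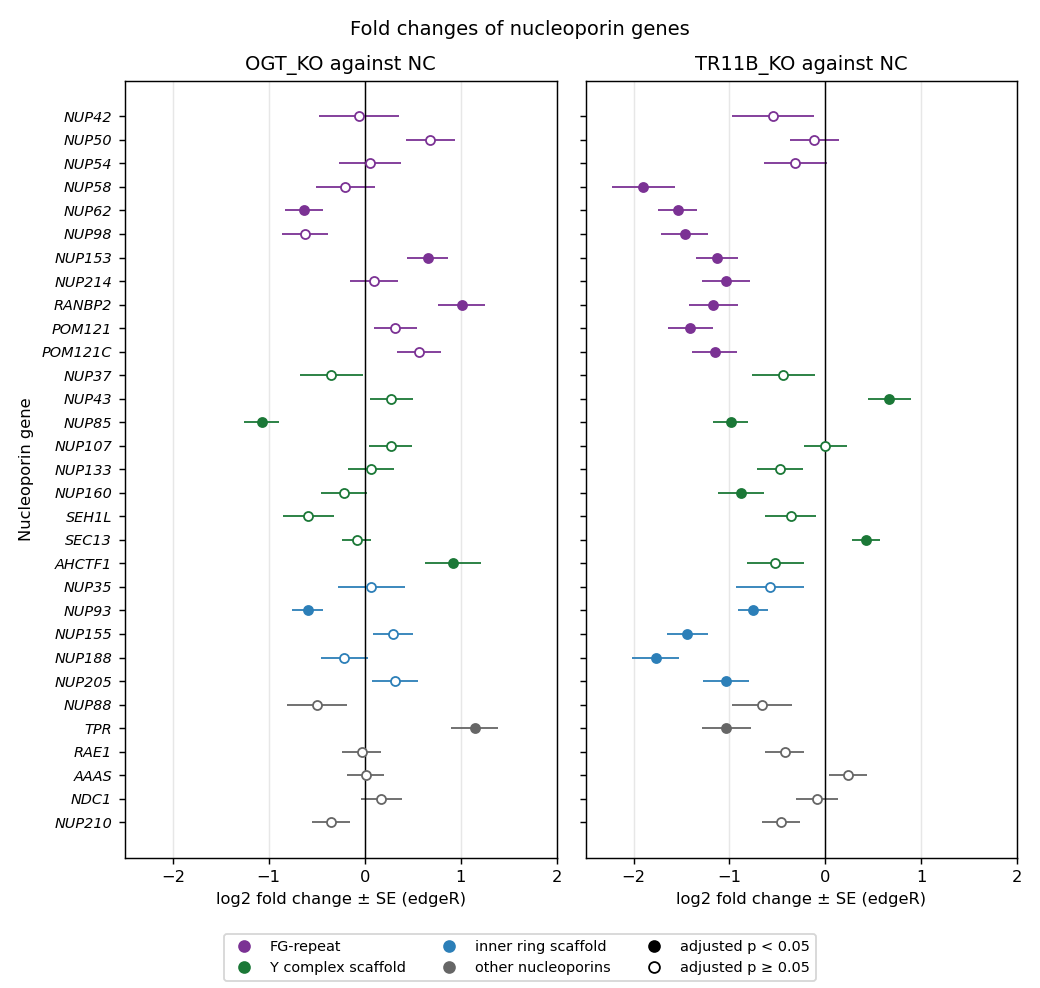
Log2 fold change with its SE (edgeR, 3 libraries a group) of the 31 nucleoporin genes in OGT_KO against NC (left) and TR11B_KO against NC (right), coloured by class, with filled points for an adjusted p under 0.05. In the right panel all 11 FG-repeat genes lie left of 0. In the left panel they lie on both sides.

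Since the knockouts share their NC libraries, patterns across both comparisons are given as counts alone. TPR, RANBP2 and NUP153 were the 3 nucleoporins called higher in OGT_KO and lower in TR11B_KO, a pattern shown by 104 of all tested genes (0.827%). NUP62, NUP85 and NUP93 were lower in both, as were 471 of all tested genes (3.75%). Another 9 fell in TR11B_KO without a call in OGT_KO (NUP58, NUP98, NUP214, POM121, POM121C, NUP160, NUP155, NUP188 and NUP205). The share of all tested genes with that pattern was not counted. Whatever their result in OGT_KO, 14.3% of all tested genes fell in TR11B_KO.

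The comparison of the knockouts with each other uses no NC library as a group. In OGT_KO against TR11B_KO, 15 of the 31 genes were higher, 1 was lower and 15 did not pass, where 33.2% of all tested genes were called, 16.7% higher and 16.5% lower. The FG-repeat genes held 9 of the higher calls, of 11 members, and the scaffold 5 of 14. RANBP2 was 2.18 ± 0.26 higher on the log2 scale (edgeR adjusted p = 4.22e-05), TPR 2.18 ± 0.26 (adjusted p = 4.25e-05) and NUP153 1.79 ± 0.22 (adjusted p = 6.21e-05), with no overlap of the groups. POM121 and POM121C were both higher by 1.73 on the log2 scale, NUP155 by 1.73 too, and NUP58 by 1.69. For AHCTF1, which had no call in TR11B_KO against NC, the log2 difference between the knockouts was 1.45 ± 0.30 (adjusted p = 0.00242). NUP85 and NUP93, lower in both knockouts against NC, differed between them by −0.08 ± 0.18 and 0.16 ± 0.16, with no call. SEC13 was the 1 lower gene (−0.51 ± 0.15, adjusted p = 0.0189).

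The nucleoporins separated in OGT_KO against TR11B_KO numbered 15 higher and 1 lower, where 44.9% of all genes were separated, 24.6% higher and 20.3% lower. NUP160 was called in spite of overlapping libraries (0.67 ± 0.24, edgeR adjusted p = 0.0471), and NUP133 was separated but not called (0.54 ± 0.24, adjusted p = 0.0967). The call of NUP160 was lost without OGT_KO replicate 2 or 3, TR11B_KO replicate 2 or 3 or any NC library (adjusted p 0.0531 to 0.199). That of NUP50 (0.80 ± 0.26, adjusted p = 0.0279) was lost without OGT_KO replicate 1 or 2 or TR11B_KO replicate 3 (0.0604 to 0.123), that of NUP98 without OGT_KO replicate 2 (0.0830), and that of SEC13 without OGT_KO replicate 2 or 3 (0.0750 to 0.0801).

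**Figure D4:**
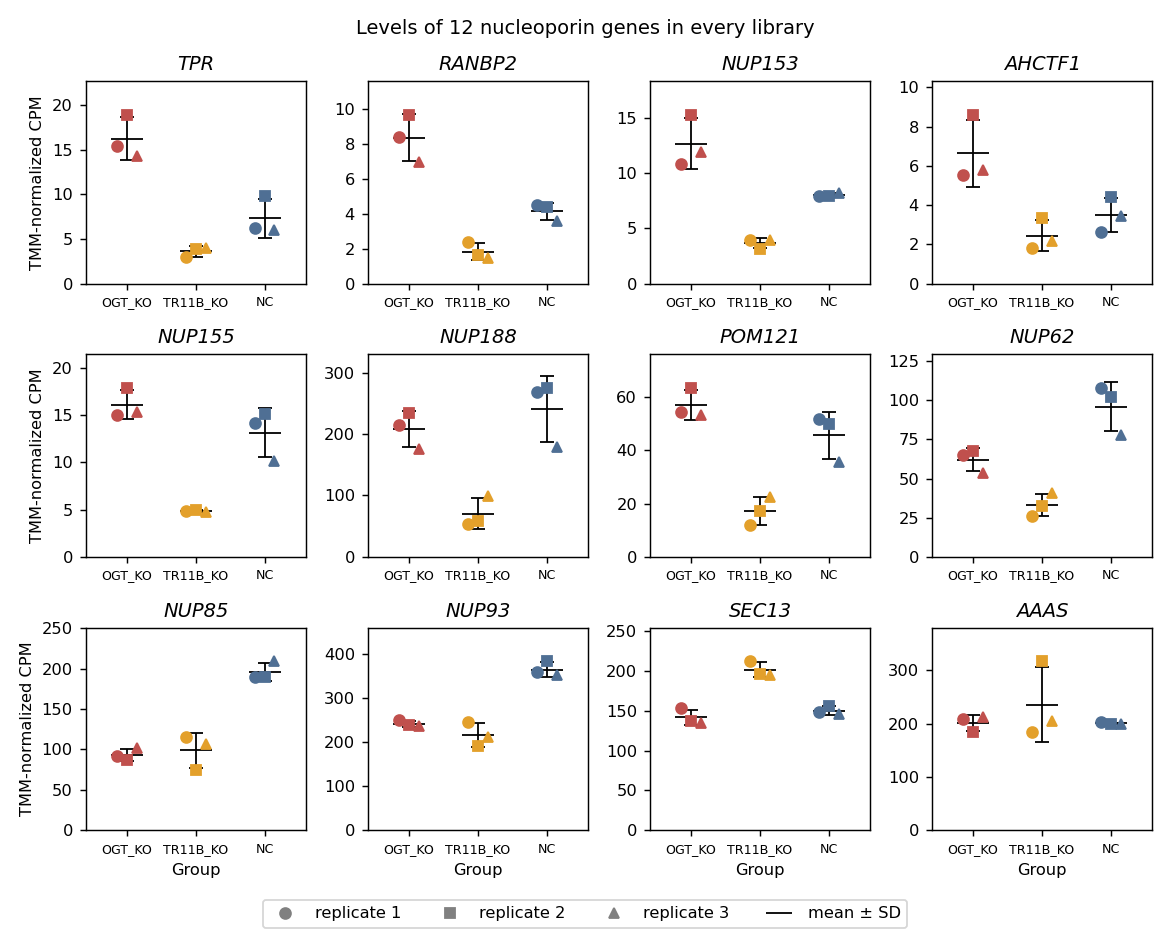
TMM-normalized CPM (axes from 0) of 12 nucleoporin genes in OGT_KO, TR11B_KO and NC. Points are libraries, shaped by replicate, and bars are mean ± SD of 3. For TPR, RANBP2 and NUP153 every OGT_KO library lies above and every TR11B_KO library below NC, while for NUP85 and NUP93 both knockouts lie below NC.

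Relative to the summed FPKM of the scaffold, FG-repeat RNA was lower in every TR11B_KO library than in any NC library. That separation depended on SEC13. Summed over its 11 genes, FG-repeat RNA came to 297 ± 40.0 CPM in OGT_KO, 122 ± 22.02 CPM in TR11B_KO and 299 ± 47.6 CPM in NC (SD, n = 3 each). The inner ring summed to 494 ± 35.8, 302.5 ± 34.1 and 641 ± 73.2 CPM in OGT_KO, TR11B_KO and NC. For the Y complex the sums were 304.5 ± 6.82, 363 ± 36.5 and 416 ± 9.61 CPM in the same order. The inner ring thus had its lowest sum in TR11B_KO, whereas the Y complex had its lowest in OGT_KO. The Y complex sum includes SEC13, at 141.8 ± 9.8, 201.4 ± 9.3 and 150.3 ± 5.6 CPM in OGT_KO, TR11B_KO and NC. By gene, the median log2 fold change of the Y complex against NC was −0.08 in OGT_KO and −0.44 in TR11B_KO. The order of its sums thus does not hold for the module gene by gene. The ratio of summed FG-repeat FPKM to summed scaffold FPKM was 0.272, 0.322 and 0.267 in OGT_KO, 0.102, 0.134 and 0.152 in TR11B_KO and 0.263, 0.251 and 0.209 in NC. All TR11B_KO libraries were below, and all OGT_KO libraries above, the NC libraries, although OGT_KO replicate 3 lay only just above NC replicate 1. The FG-repeat sum was 55.3 ± 10.0 FPKM in OGT_KO and 56.3 ± 8.49 FPKM in NC. The scaffold sum was 192 ± 15.4 FPKM in OGT_KO and 232.7 ± 9.82 FPKM in NC. The higher OGT_KO ratio thus went with a lower scaffold sum, not a higher FG-repeat sum. Of the scaffold genes, NUP85 and NUP93 were called lower and AHCTF1 higher in OGT_KO. SEC13 alone held 94.4, 68.5 and 82.4 of the 185.9, 121.3 and 165.9 scaffold FPKM in the TR11B_KO libraries. In the NC libraries it held 66.7, 69.85 and 65.4 of 234.8, 241.3 and 222 FPKM. With SEC13 taken out of the scaffold sum, the TR11B_KO and NC ratios overlap. Without POM121C and SEC13 as members, 7 of 10 FG-repeat genes and 6 of 13 scaffold genes fell in TR11B_KO.

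Gene length moved with the TR11B_KO result. Over all tested genes the log2 fold change in TR11B_KO against NC fell with gene length (Spearman rho −0.313 across 12574 genes, which share libraries and are not independent replicates). In OGT_KO against NC the rho was 0.066. The nucleoporins are long, with a median of 5867 bases against 3965 over all tested genes, and within them rho was −0.347 in TR11B_KO and 0.462 in OGT_KO (n = 31). Of the 2515 longest genes, at 7154 bases or more, 19.6% fell in TR11B_KO, and 7 of the 9 nucleoporins among them did. At 4770 to 7153 bases, 20% of all genes and 6 of 11 nucleoporins fell. NUP62, with 3394 bases, was among the shorter nucleoporins that fell. With an offset that removed the trend with length from each library, 14 nucleoporins were lower and 1 higher in TR11B_KO. Of all 12574 genes in that fit, 1491 were lower and 1287 higher. The FG-repeat class held 8 of the lower nucleoporins, and its median was −0.92. In OGT_KO against TR11B_KO, rho with length was 0.333 over all tested genes and 0.548 over the nucleoporins. Of the longest genes 31.25% were higher there, and 7 of the 9 nucleoporins. At 4770 to 7153 bases it was 22.03% of all genes and 7 of 11 nucleoporins. With the length offset, 12 nucleoporins were higher and 0 lower in that comparison, where 1806 of 12574 genes were higher and 1756 lower.

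GC content was a further property that moved with the OGT_KO result. Across 12012 tested genes with a known transcript, the log2 fold change against NC had a rho of −0.237 with GC content in OGT_KO and 0.150 in TR11B_KO. Of the 4 nucleoporins that rose in OGT_KO, TPR holds 40.1%, RANBP2 39.2%, AHCTF1 40.3% and NUP153 44.5% GC. Of the 3 that fell in OGT_KO, NUP62 holds 58.4% and NUP85 51.8%, above the median tested gene at 49.1%, and NUP93 holds 46.8%, below it. Among the nucleoporins alone the rho with GC content was −0.278 in OGT_KO and −0.178 in TR11B_KO (n = 31), so that in TR11B_KO its sign was opposite to that over all genes. With offsets for length and GC content together, 4 nucleoporins were higher and 5 lower in OGT_KO, and 4 of the 7 calls were kept. Of all 12012 genes in that fit, 1564 were higher and 1596 lower, so the share of nucleoporins called was near that of all genes. TPR, NUP153, NUP85 and NUP93 kept their calls, with log2 fold changes of 0.78, 0.61, −0.78 and −0.63. RANBP2 (0.53, edgeR adjusted p = 0.0675), AHCTF1 (0.57, adjusted p = 0.150) and NUP62 (−0.41, adjusted p = 0.108) missed the threshold.

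**Figure D5:**
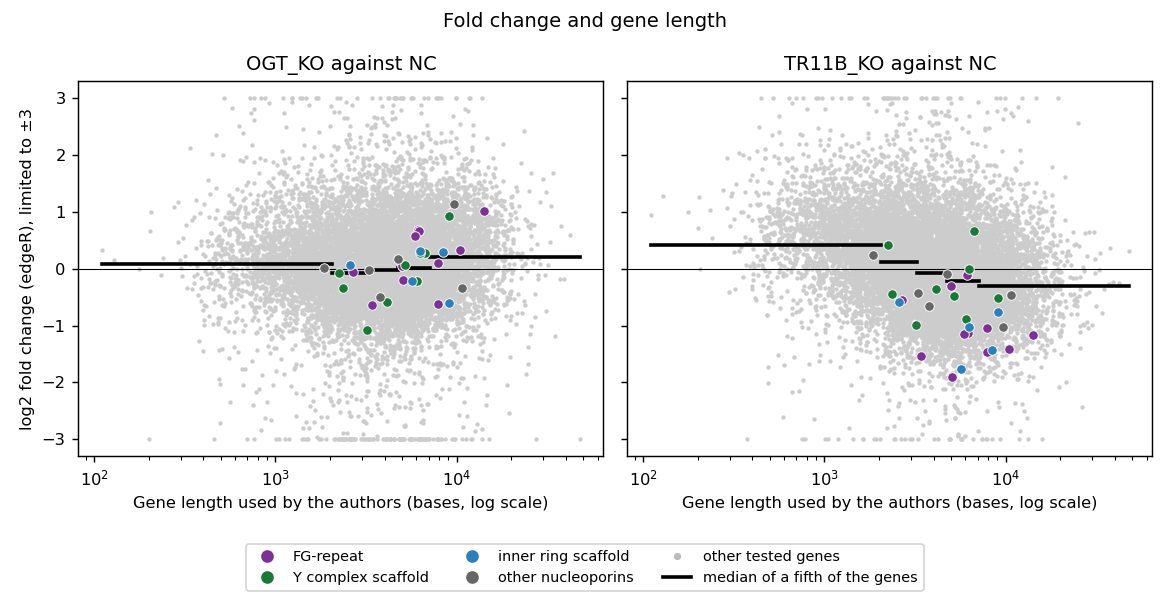
Log2 fold change (edgeR, limited to ±3) against gene length in bases (log axis) for all 12574 tested genes (grey) and the 31 nucleoporins (coloured by class), in OGT_KO against NC (left) and TR11B_KO against NC (right). Black lines are medians of 5 equal bins of genes by length, which in TR11B_KO go down to −0.31 in the bin of longest genes. Most nucleoporins in the right panel lie under these lines.

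The 12 nucleoporins called in no comparison were NUP42, NUP54, NUP37, NUP107, NUP133, SEH1L, NUP35, NUP88, RAE1, AAAS, NDC1 and NUP210. Their log2 fold changes lay between −0.59 (SEH1L) and 0.27 (NUP107) in OGT_KO and between −0.66 (NUP88) and 0.24 (AAAS) in TR11B_KO. NUP42, a small FG-repeat partner of the export factor GLE1, was at 0.435 to 1.94 CPM over the 9 libraries and had an SE of 0.43 in TR11B_KO. Its TR11B_KO libraries spread from 0.435 to 1.55 CPM, and a change of moderate size was not detectable at this level and spread. AAAS had 185, 317 and 206 CPM in TR11B_KO, the high value being replicate 2, against 199 to 202 CPM in NC. NUP88, which pairs with NUP214, had 13.4, 18.1 and 22.1 CPM in OGT_KO and 25.9, 8.93 and 13.1 CPM in TR11B_KO, against 24.4 to 26.0 CPM in NC. The membrane proteins NDC1 and NUP210 had log2 fold changes of −0.09 ± 0.22 and −0.46 ± 0.20 in TR11B_KO.

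Among the receptors that carry cargo through the pore, 10 of 18 import receptors fell in TR11B_KO against NC, where 14.3% of all tested genes fell. Their median length was 6122 bases, and of genes with 4770 to 7153 bases 20% fell, with a median log2 fold change of −0.22. Whether length has a part in these falls was not tested. In OGT_KO 2 of the 18 fell, near the 10.1% of all tested genes. The median log2 fold change of the import receptors was −0.09 in OGT_KO and −0.74 in TR11B_KO, against 0.03 and −0.01 over all tested genes. KPNA6, an importin alpha, had 12.9, 7.09 and 12.1 CPM in TR11B_KO and 26.6, 34.4 and 23.8 CPM in NC (−1.40 ± 0.25, edgeR adjusted p = 0.00151). TNPO2, which carries RNA-binding proteins inward, fell in both knockouts, by −0.68 ± 0.17 in OGT_KO (adjusted p = 0.0147) and −0.96 ± 0.17 in TR11B_KO (adjusted p = 0.00154). SNUPN, the adaptor for spliceosomal snRNPs, did too, with −0.94 ± 0.25 (adjusted p = 0.0201) in OGT_KO and −1.32 ± 0.26 (adjusted p = 0.00248) in TR11B_KO.

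Of 9 export receptors, 6 fell in TR11B_KO, with a median log2 fold change of −0.81, where 14.3% of all tested genes fell with a median of −0.01. Their median length was 5323 bases, in the length range where 20% of genes fell. XPO1, the main protein exporter, had 0.50 ± 0.28 (edgeR adjusted p = 0.1945) there, and NXT1, the partner of the mRNA exporter NXF1, had 0.43 ± 0.16 (adjusted p = 0.0600). XPO6, which exports actin, had 50.6, 45.8 and 73.6 CPM in TR11B_KO and 149.6, 150.3 and 112 CPM in NC (−1.28 ± 0.21, edgeR adjusted p = 0.000816). XPO5, the exporter of pre-miRNAs, fell by 0.99 ± 0.24 (log2 fold change −0.99, adjusted p = 0.00828). CSE1L, which returns importin alpha to the cytoplasm, changed in both knockouts. It had 23.5, 28.6 and 21.7 CPM in OGT_KO, 8.31, 7.45 and 6.63 CPM in TR11B_KO and 15.4, 14.9 and 14.97 CPM in NC, higher in OGT_KO (0.70 ± 0.19, adjusted p = 0.0222) and lower in TR11B_KO (−1.02 ± 0.20, adjusted p = 0.00236).

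The Ran cycle gives transport its direction. Of its 7 genes, 2 fell in OGT_KO against NC, where 10.1% of all tested genes fell. RAN itself had 214, 224 and 169 CPM in OGT_KO and 377, 430.2 and 334 CPM in NC (−0.91 ± 0.27, edgeR adjusted p = 0.0325). Its nucleotide exchange factor RCC1 fell as well (−0.66 ± 0.18, adjusted p = 0.0195). In TR11B_KO 0 of the 7 passed in edgeR and 0 in DESeq2, and 2 had an unadjusted p under 0.05 in edgeR. There RAN was at 450.2, 170.1 and 315 CPM.

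Of 14 measured genes of pore-linked mRNA export, 1 rose and 3 fell in OGT_KO, and 2 rose and 2 fell in TR11B_KO. Of all tested genes 18.3% were called in OGT_KO and 27.6% in TR11B_KO, so the share called in TR11B_KO was near the background. MCM3AP, the GANP scaffold of the TREX-2 complex at the basket, fell in both, by −0.90 ± 0.17 in OGT_KO (edgeR adjusted p = 0.00318) and −1.61 ± 0.18 in TR11B_KO (adjusted p = 8.43e-05). THOC2, of the THO complex, rose in OGT_KO (1.51 ± 0.33, adjusted p = 0.00682), and ALYREF, an mRNA export adaptor, fell there (−0.63 ± 0.15, adjusted p = 0.0117). GLE1, which activates the export helicase at the pore, fell in TR11B_KO (−1.40 ± 0.27, adjusted p = 0.00213), and THOC6 rose there (0.79 ± 0.20, adjusted p = 0.0105).

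Among 13 genes of the lamina and its links to the cytoskeleton, 2 rose and 2 fell in OGT_KO, and 1 rose and 1 fell in TR11B_KO. The share called in TR11B_KO was under the 27.6% of all tested genes, and in OGT_KO 18.3% of all tested genes were called. LMNB2, a B-type lamin, fell in OGT_KO (−0.91 ± 0.15, edgeR adjusted p = 0.00132), and SYNE2, a nesprin, rose (0.87 ± 0.24, adjusted p = 0.0233). SUN1, an inner membrane protein associated with pores, had 15.6, 17.1 and 14.4 CPM in OGT_KO, 15.3, 12.6 and 14.3 CPM in TR11B_KO and 31.3, 31.4 and 30.97 CPM in NC. It was lower in both knockouts, with −0.99 ± 0.18 in OGT_KO (adjusted p = 0.00213) and −1.15 ± 0.18 in TR11B_KO (adjusted p = 0.0007). LEMD2 rose in TR11B_KO (0.77 ± 0.18, adjusted p = 0.007).

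Proteases and checkpoint proteins that work at the basket were measured as well. The SUMO protease SENP1, held at the basket, had 3.41, 2.86 and 3.43 CPM in OGT_KO and 1.41, 1.32 and 1.74 CPM in NC (1.12 ± 0.26, edgeR adjusted p = 0.00998). SENP2 rose there as well (1.02 ± 0.29, adjusted p = 0.0239). MAD2L1, the checkpoint protein whose partner MAD1 sits on TPR, had 27.5, 15.9 and 13.8 CPM in TR11B_KO and 7.43, 7.65 and 10.2 CPM in NC, and rose by 1.18 ± 0.27 (adjusted p = 0.00623).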

How the data were processed

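RNA of 9 A549 libraries was measured by RNA-seq, from TRIzol extracts with the VAHTS Universal V6 kit, per the labels' protocols. The submitters' processing notes name fastp, HISAT, HTSeq, R 3.2.0, DESeq2 and GRCh38, without settings. The authors deposited raw read counts per gene and FPKM values. Groups and replicate numbers are those in the titles. The nucleoporins and the other lists were chosen with earlier results of these data known. Counts were tested with edgeR 4.0.16 in R 4.3.3 (filterByExpr, TMM, robust quasi-likelihood F test, all 9 libraries), with Benjamini-Hochberg adjustment over the 12574 genes tested and calls at an adjusted p under 0.05. The SE of a log2 fold change is its size divided by the square root of F. All 31 nucleoporins were accounted for, OGT and OGA were always taken, and up to 3 called genes with the smallest adjusted p were named from each other list per knockout. DDX39B, on the mRNA export list, was not analysed here. Counts over the list of SUMO and checkpoint genes, and an item of it, are not reported here. Gene lengths are the authors', from counts and FPKM, GC content is that of the longest GENCODE transcript, and promoters are from RefSeq (GRCh38.p14). The steps were tested on simulated data. Alternatives were DESeq2 1.42.0, RLE factors, library totals, other filters, 2-group fits, the replicate number as a block, length and GC offsets, limma 3.58.1 on log2(FPKM + 1) and log2(FPKM + 0.1), and each library left out. The offsets with GC content were chosen after seeing the data.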

Additional observations from a re-analysis of the deposited data

How the results depend on the processing

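The count of called nucleoporins in OGT_KO against NC, 7, depended on the processing. It was 4 with library totals alone, 4 with the replicate block, 4 with the replicate block and length offset together, 4 in each of the limma fits on FPKM, and 14 in the fit of only the 2 groups compared. Leaving out 1 library gave 2 to 12: 3 without OGT_KO replicate 1, 2 without OGT_KO replicate 2, 3 without OGT_KO replicate 3, 11 without TR11B_KO replicate 1, 12 without TR11B_KO replicate 2, 3 without either of NC replicates 1 and 2, and 4 without NC replicate 3. In TR11B_KO against NC the count of 17 was 11 with the block and length offset and 11 with limma on log2(FPKM + 1), and 13 to 21 over the libraries left out. Between the knockouts it was 12 to 19, against 16. Over all genes, 2303 calls in OGT_KO became 5095 with only the 2 groups and 1521 with block and length offset, and 1072 to 4536 over the libraries left out. In TR11B_KO 3469 became 2251, 1965 and 1813 to 4463 under those alternatives, and between the knockouts 4174 became 2401 to 5307 over the libraries left out. The causes were not tested.

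The FG-repeat genes that fell in TR11B_KO numbered 7 or 8 under every alternative run, and their median lay between −1.30 and −0.61. In OGT_KO the FG-repeat median, 0.10, was 0.061 to 0.31. The scaffold median there, −0.01, was on either side of 0 (0.11 with library totals). Library totals moved the median of all genes to 0.15 in OGT_KO, −0.15 in TR11B_KO and 0.31 between the knockouts, with 1369 higher and 890 lower, 1180 and 2030, and 3084 and 1268 calls, where TMM factors gave 1039 and 1264, 1666 and 1803, and 2104 and 2070. The limma fits on FPKM, which is scaled to library totals, gave 1328 and 736 or 1488 and 850 in OGT_KO, 974 and 1490 or 1197 and 2010 in TR11B_KO, and 2752 and 1109 or 3277 and 1246 between the knockouts. Under them NUP43 and SEC13 lost their calls in TR11B_KO. The log2 fold change of OGA in TR11B_KO, −0.23, was 0.078 with the length and GC offset, 0.048 without TR11B_KO replicate 2 and −0.57 without TR11B_KO replicate 3, the ends of its range over the libraries left out. Of the values of single genes under alternatives, 862 kept their direction and side of the threshold, 140 no longer passed, 8 newly passed and 2 changed sign.

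Same-numbered libraries did not deviate together (9 pairs, r −0.199 to 0.0687, against −0.1 to 0.216 for 18 pairs of different numbers), so the replicate block was only an alternative; it gave 1609, 2612 and 3403 calls over all genes in OGT_KO, TR11B_KO and between the knockouts, and 4, 15 and 13 of nucleoporins.

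NUP42, NUP54, NUP35 and NUP58 rest on few counts and have SEs of 0.31 to 0.43 in the knockouts against NC; NUP58 had 50, 39 and 36 counts in TR11B_KO. An antisense or overlapping partner, or a near-identical copy, can share the reads of NUP153, NUP62, NUP188, NUP88, RANBP2, POM121 and POM121C.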
